A study of Mus musculus with 32 samples.

Results

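Open chromatin around the collagen genes was followed by ATAC-seq while mouse fibroblasts were reprogrammed to induced pluripotent stem cells. The set comprised the 44 protein-coding genes of the RefSeq table (assembly GRCm38.p6) whose symbol reads Col, a number, a and a number, out of 21887 protein-coding genes. Peaks counted for a gene were those of the deposited lists whose centre lay in the gene body or within 50 kb of it, and each peak was counted once in sums over genes. The 44 windows merged into 36 loci of 9.21 Mb in all. In 7 of these loci, which hold 15 of the genes, collagen genes lie next to each other and share peaks.

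Collagens are extracellular matrix proteins built from 3 chains wound into a triple helix. Fibrillar collagens form the cables of skin, tendon, bone and cartilage. Type IV collagens form the sheet of basement membranes, type VI collagens form beaded filaments, and fibril-associated collagens sit on the surface of fibrils. Fibroblasts are a main source of types I, III, V and VI, and the loss of such mesenchymal matrix genes is a known part of the change to a pluripotent cell.

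The 32 samples came from OG2-MEFs, mouse embryonic fibroblasts with a GFP reporter of Pou5f1, and fell into 15 groups, each with 1 deposited peak list. Cells with CTCF shRNA were compared with cells with control shRNA (shLuci) at day 0 and in 4 sorted populations made, per the series' design, with a doxycycline-inducible OSKM lentivirus (Oct4, Sox2, Klf4 and c-Myc). These were Thy1+ cells, given as 1 list for samples of days 3, 6 and 9, SSEA1-Thy1- and SSEA1+ cells, each from days 6 and 9, and GFP+ cells of day 12. At day 10 of reprogramming with OSKM, CTCF overexpression with Smarca5 shRNA was compared with CTCF overexpression alone, and CTCF overexpression with its control. In unsorted cells of day 12, Smarca5 shRNA was compared with control shRNA. CTCF is the zinc finger protein of insulators and domain borders, and Smarca5 is the ATPase of ISWI remodelling complexes. Reprogramming medium contained vitamin C, a cofactor of the prolyl hydroxylases that act on collagen, in all reprogrammed groups.

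Lists held 43618 to 213386 peaks after overlapping intervals were merged. Samples of a group share 1 list without read counts, so depth is unknown, differences cannot be set against replicate spread, and no test was run. Intervals below are exact 95% intervals for counting error over peaks only. The sorted labels were checked against markers chosen for the purpose. In GFP+ control cells, against day 0 control cells, the 14 fibroblast markers had 111 against 236 peaks, and the 8 pluripotent cell markers had 119 against 74. Of the 14 fibroblast markers, Fap had no peak in GFP+ control cells, and each had at least 1 in the other lists of day 0 and sorted cells. In bulk samples fewer cells of a type cannot be told apart from fewer open sites in each cell.

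Collagen genes stood in open chromatin in fibroblasts. In the day 0 control list 914 of 153962 peaks lay around them, 0.594% of the list (0.556% to 0.633%). The median collagen gene had 22 peaks, against 11 for all protein-coding genes, and the genes ranged from 8 peaks at Col9a1 and Col10a1 to 48 at Col5a1. Longer genes have wider windows, and the collagen gene bodies run from 7.1 kb at Col10a1 to 420 kb at Col25a1. Peak numbers and 2-fold calls, here and below, were not adjusted for gene length when set against all genes. A gene-end peak, a peak centred within 1 kb of either end of the gene, was present at 37 of the 44, 84.1% against 66.1% of all genes. Over the control populations of day 0, Thy1+, SSEA1-Thy1-, SSEA1+ and GFP+ cells, collagen peaks numbered 914, 1063, 776, 646 and 424. As a share of the list it was 0.594%, 0.547%, 0.513%, 0.476% and 0.464%, lower at each stage. The intervals of neighbouring stages overlap, whereas that of GFP+ cells (0.421% to 0.510%) lies below that of day 0. The Thy1+ list, from 3 samples, is also the longest control list, and 35 of the 44 genes had more peaks there than at day 0. The median over all genes was also higher there, at 14 peaks against 11, and the share of all genes with more peaks was not counted.

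**Figure D1:**
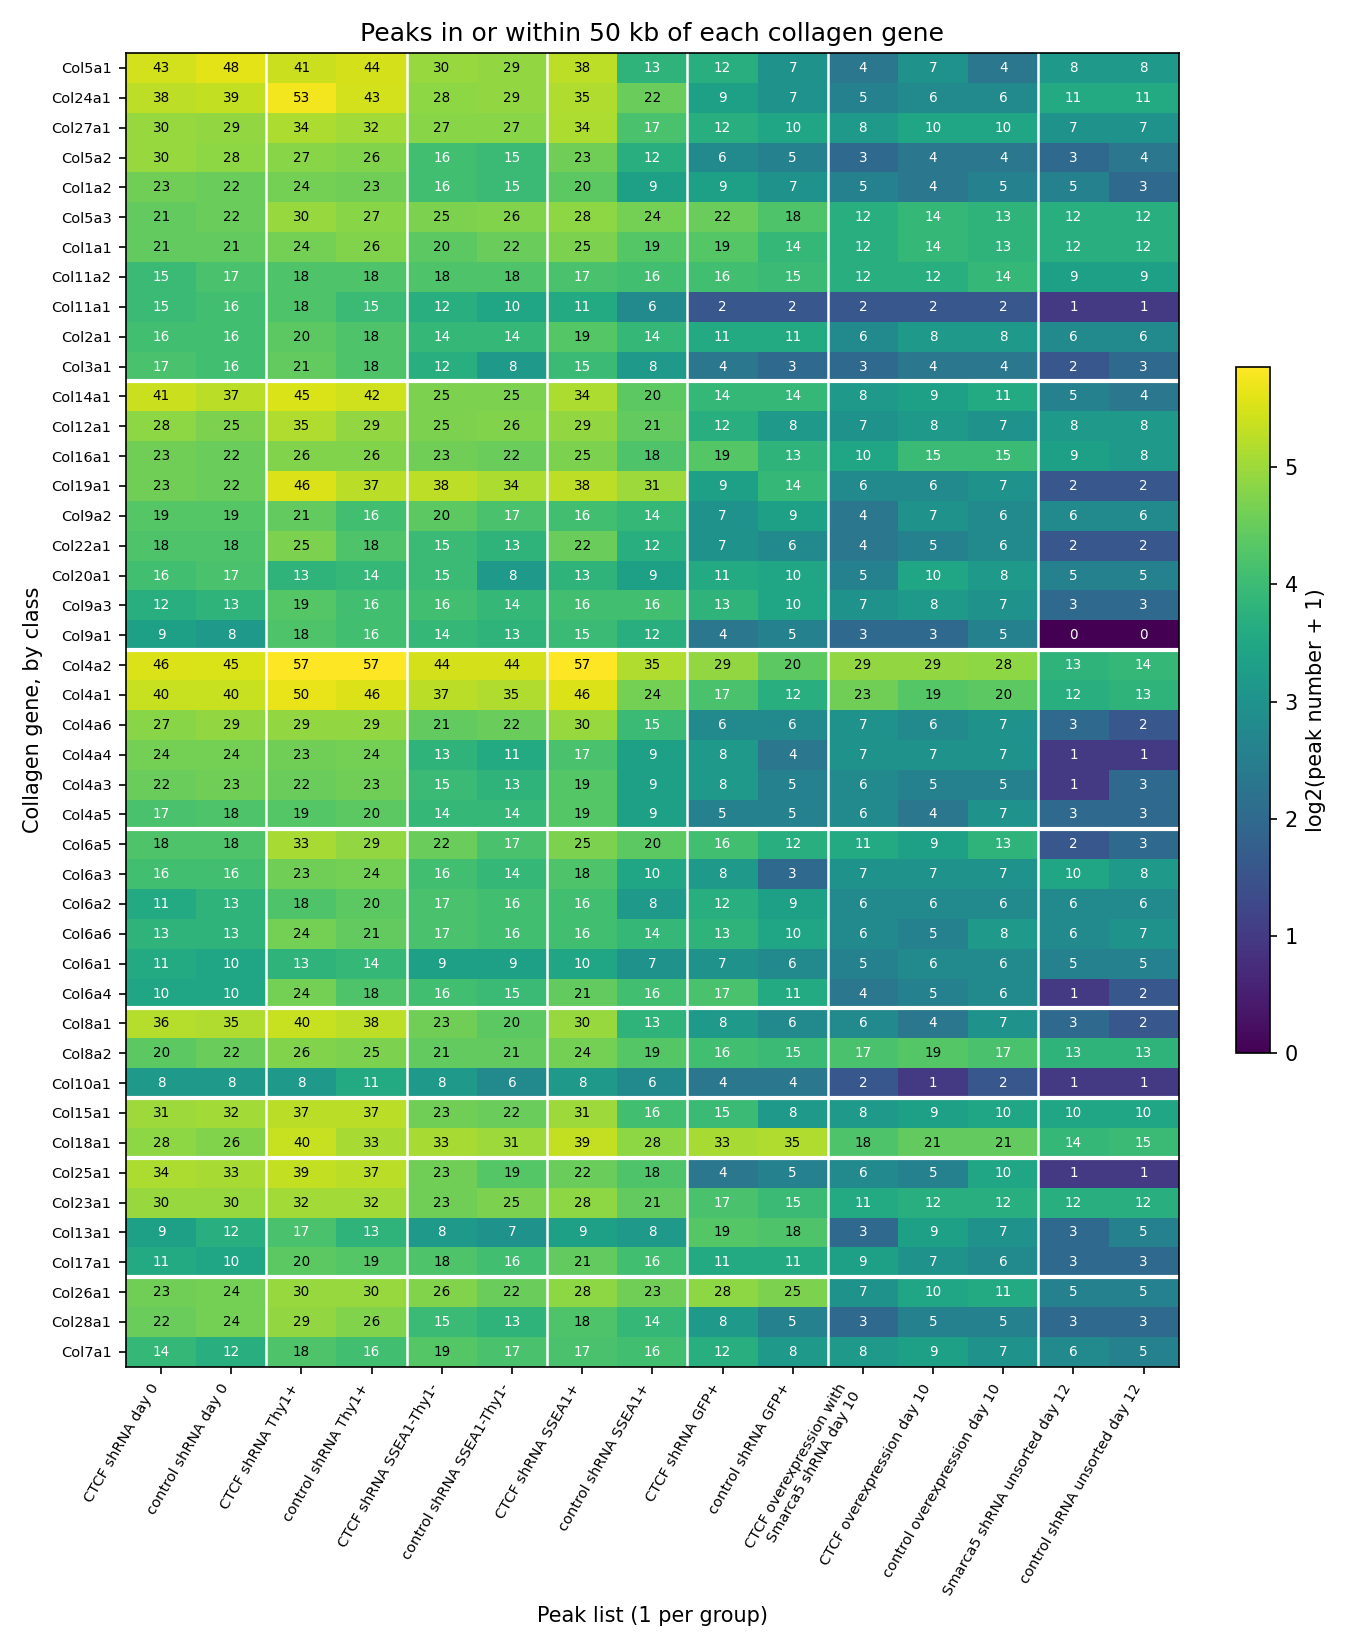
Number of peaks in or within 50 kb of each of the 44 collagen genes (rows, grouped by class with fibrillar genes on top) in each of the 15 peak lists (columns), with colour for log2(peak number + 1) and the number printed in each cell. Col5a1 has 7 peaks in the GFP+ control column and 48 in the day 0 control column, whereas Col18a1 has 35 and 26.

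GFP+ control cells were then set against day 0 control cells, which asks where the fibroblast state of these genes is lost. GFP+ cells had fewer peaks at 39 of the 44 collagen genes and more at 5. At least 2-fold fewer peaks were found at 24 of 44 genes, against 20.8% of all genes with at least 5 peaks in the higher list, and at least 2-fold more at 0 of 44, against 2.38%. Over all such genes 63.9% had fewer and 27.9% had more peaks. The median log2 ratio of (peak number + 1) was -0.98 over the collagen genes and -0.24 over all such genes. The whole GFP+ list is shorter (91337 against 153962 peaks), and with each fold divided by the ratio of list lengths 14 of 44 genes were at least 2-fold lower, against 7.32% of all genes, and 2 were at least 2-fold higher, against 17.2%. Relative to list length the collagen peaks had a log2 ratio of -0.35 (-0.52 to -0.19), GFP+ over day 0. Within the gene bodies alone it was -0.79 (-1.04 to -0.54). Of 32 genes with at least 5 body peaks in the higher list, 22 had at least 2-fold fewer, against 43.5% of all such genes. At least 2-fold more were found at 0 of 32, against 4.46%. With at least 10 peaks required in the higher list, 23 of 42 genes had 2-fold fewer, against 19.5%, and 0 of 42 more, against 1.59%.

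The classes had unlike values. Fibrillar genes, 11 in number, had 97 peaks in GFP+ against 268 in day 0 control cells, a relative log2 of -0.71 (-1.06 to -0.37). The 6 type IV genes had 42 against 135, at -0.93 (-1.47 to -0.42), and the 3 network-forming genes of types VIII and X had 25 against 65, at -0.63 (-1.35 to 0.06). Fibril-associated genes had 87 against 178, at -0.28 (-0.67 to 0.10). For the transmembrane genes the values were 49 against 85, at -0.04 (-0.58 to 0.48), and for the type VI genes 43 against 65, at 0.16 (-0.43 to 0.74). The pair of multiplexins, Col15a1 and Col18a1, had 43 against 58, at 0.32 (-0.28 to 0.92), but differed from each other, as given below. The difference between classes was not tested, but the intervals of the type IV and fibrillar classes lie below 0 and those of the others include it.

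Type I collagen, the main fibre of skin, tendon and bone, is a trimer of the Col1a1 and Col1a2 chains. Col1a2 (chromosome 6, 4505618 to 4541543) had 22, 23, 15, 9 and 7 peaks in the control lists of day 0, Thy1+, SSEA1-Thy1-, SSEA1+ and GFP+ cells, and Col1a1 (chromosome 11, 94936224 to 94953042) had 21, 26, 22, 19 and 14. Of the 21 day 0 control peaks around Col1a1, 12 were present in GFP+ control cells and 9 were absent, and SSEA1+ control cells held all of those 12 and 1 of those 9. Of the 22 day 0 control peaks around Col1a2, 17 were absent from GFP+ control cells, of which Thy1+, SSEA1-Thy1- and SSEA1+ control cells held 16, 7 and 1. A gene-end peak was present at both genes in each of the 15 lists.

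Col5a1 and Col5a2 encode type V collagen, which starts and limits the assembly of type I fibrils, and Col3a1 encodes type III, the fibre of stretchable tissues. Col5a1 (chromosome 2, 27886381 to 28039510) had the most peaks of any collagen gene at day 0, with 48, and had 44, 29, 13 and 7 in Thy1+, SSEA1-Thy1-, SSEA1+ and GFP+ control cells. At 6.86-fold fewer peaks in GFP+ than in day 0 control cells it had the largest difference in peak number, with a relative log2 of -2.02 (-3.41 to -0.87). Col5a2 and Col3a1 are neighbours on chromosome 1 and share a locus of 38, 38, 20, 16 and 6 control peaks over the same stages. Col3a1 (45311538 to 45349706) had 16, 18, 8, 8 and 3 of them, and Col5a2 (45374331 to 45503282) had 28, 26, 15, 12 and 5. Between Thy1+ and SSEA1-Thy1- cells lay the largest step of Col3a1 and Col5a2, and between SSEA1-Thy1- and SSEA1+ cells that of Col5a1.

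Of the other fibrillar genes, Col24a1 had 7 peaks in GFP+ and 39 in day 0 control cells, and Col27a1 had 10 and 29. Col11a1, a cartilage chain that starts type II fibrils, had 2 and 16, and 2 is the lowest value of any collagen gene in GFP+ control cells. Col2a1, the main chain of cartilage, had 16, 18, 14, 14 and 11 in the control lists in order of stage, and its partner Col11a2 had 17, 18, 18, 16 and 15. Cartilage genes were therefore among both the most and the least reduced fibrillar members. The 10 chondrocyte and bone markers, whose part in these values was not tested, had 114 peaks in GFP+ against 150 in day 0 control cells.

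The basement membrane genes lie head to head in pairs. Col4a1 and Col4a2, which encode the common type IV trimer, share a locus on chromosome 8 with 64, 77, 58, 44 and 26 control peaks from day 0 to GFP+ cells. Col4a1 had 40, 46, 35, 24 and 12, and Col4a2 had 45, 57, 44, 35 and 20. Col4a3 and Col4a4, which form the trimer of the glomerular basement membrane with Col4a5, had 5 and 4 peaks in GFP+ control cells against 23 and 24 at day 0. On the X chromosome Col4a6 and Col4a5 had 6 and 5 against 29 and 18. Each of the 6 genes had at least 2-fold fewer peaks.

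Type VI collagen of fibroblasts is made from Col6a1, Col6a2 and Col6a3. Col6a3 (chromosome 1, 90766860 to 90844001) had 16, 24, 14, 10 and 3 peaks in control cells from day 0 to the GFP+ stage. Col6a1 had 10, 14, 9, 7 and 6, and Col6a2 had 13, 20, 16, 8 and 9, neither being 2-fold lower in GFP+ cells. Col6a4, Col6a5 and Col6a6, which encode chains related to the Col6a3 chain, form a cluster on chromosome 9 with 28 peaks at day 0, 51 in Thy1+ and 26 in GFP+ control cells.

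Among the fibril-associated genes, Col12a1, whose product decorates type I fibrils, had 25, 29, 26, 21 and 8 control peaks by stage, so that most of its difference lay between SSEA1+ and GFP+ cells. Col14a1, which encodes a similar fibril surface collagen, had 37, 42, 25, 20 and 14. Of the network-forming genes, Col8a1 had 6 peaks in GFP+ against 35 in day 0 control cells, 5.83-fold fewer, and Col8a2, the partner chain of corneal Descemet's membrane, had 15 against 22. Col25a1, a transmembrane collagen of neurons, had 5 against 33.

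The 5 genes with more peaks in GFP+ than in day 0 control cells were Col18a1, Col13a1, Col26a1, Col17a1 and Col6a4. Col18a1, the source of endostatin, had 35 against 26, a relative log2 of 1.18 (0.41 to 1.97), while its relative Col15a1 had 8 against 32. Col13a1, a transmembrane collagen of cell adhesion sites and the neuromuscular junction, had 18 against 12, at 1.34 (0.20 to 2.52), and in Thy1+, SSEA1-Thy1- and SSEA1+ control cells it had 13, 7 and 8. Of the 18 peaks of Col13a1 in GFP+ control cells, 10 were absent at day 0, and of these 1 was present in SSEA1+ control cells. Col26a1 had 25 against 24, at 0.81 (-0.06 to 1.68). Col17a1, the hemidesmosome collagen of epithelia, and Col6a4 each had 11 against 10. The 9 epithelial markers had 133 peaks in GFP+ against 96 in day 0 control cells, and their part in these values was not tested.

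**Figure D2:**
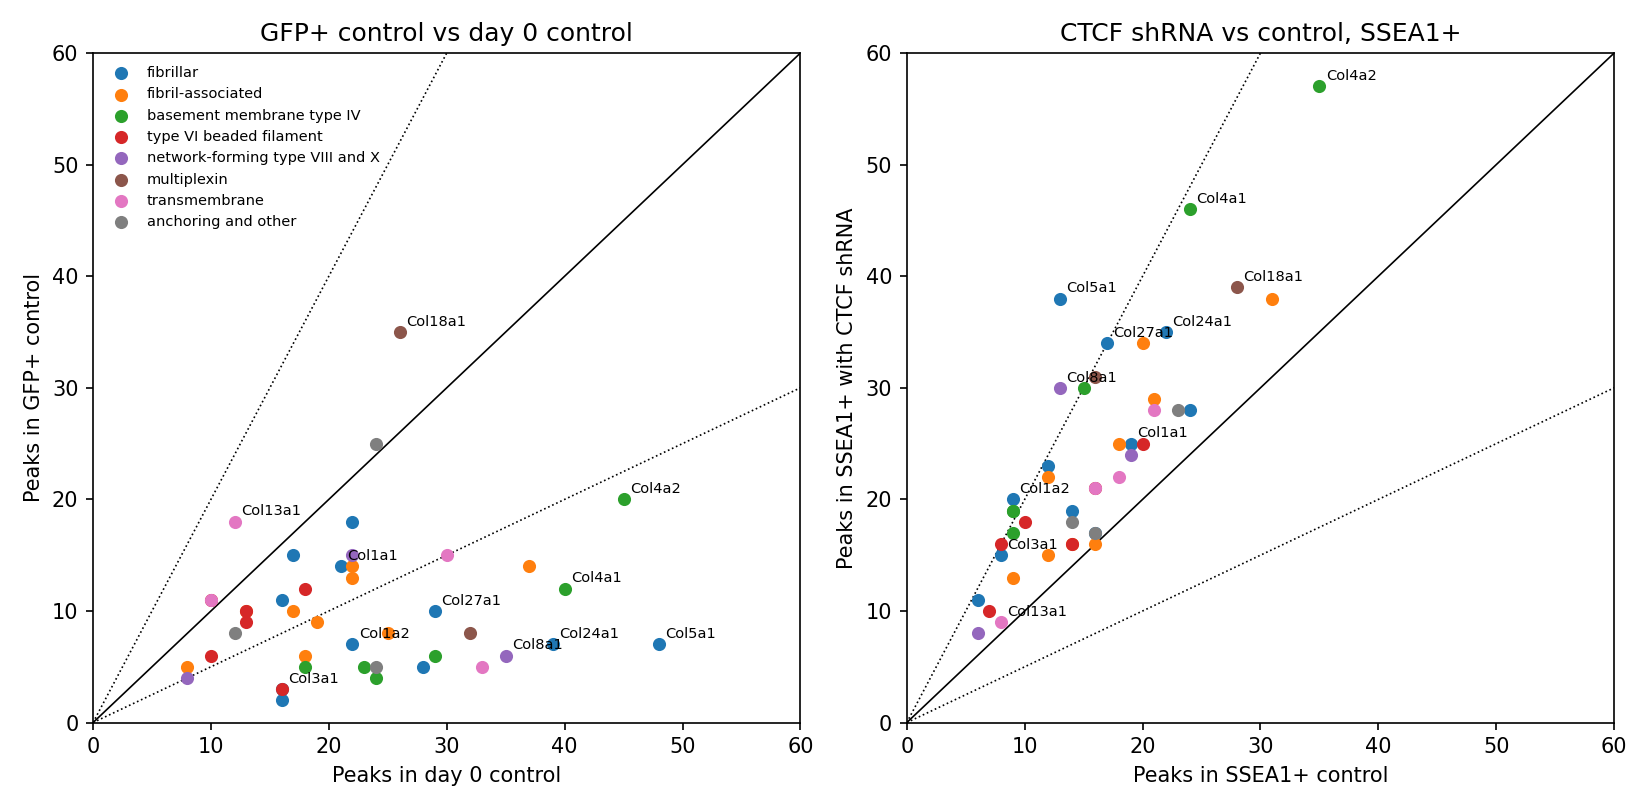
Each point is a collagen gene, coloured by class, at its number of peaks in 2 lists, with a solid line for equal numbers and dotted lines for 2-fold differences. Left, GFP+ control (vertical) against day 0 control (horizontal): 24 of 44 genes lie on or below the lower dotted line and 5 lie above equality. Right, SSEA1+ with CTCF shRNA (vertical) against SSEA1+ control (horizontal): 43 lie above equality and 8 on or above the upper dotted line.

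The difference in peak number was larger inside the collagen genes than in their flanks. Gene bodies held 180 of the collagen peaks in GFP+ control cells, against 524 at day 0, and flanks held 244 against 390. The share of collagen peaks inside a collagen gene was 57.3%, 56.1%, 53.7%, 50.2% and 42.5% over the same 5 control populations in order of stage. The share of all peaks inside any protein-coding gene was 54.0% in GFP+ against 50.8% in day 0 control cells. That is an unlike measure, since flank peaks of a collagen gene can lie inside another gene. By 2-fold calls, 43.5% of all genes had fewer peaks in their bodies and 20.8% in the 50 kb windows. Each share covers genes with at least 5 peaks there, so a larger body difference was not particular to collagen genes. Peaks within 1 kb of a listed collagen gene start numbered 30 in GFP+ and 33 in day 0 control cells. The nearest protein-coding gene was a collagen gene for 62.3% of the collagen peaks in GFP+ and 75.8% in day 0 control cells, and peaks nearer to another gene are included in the counts.

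Gene-end peaks were present at 33 of the 44 collagen genes in GFP+ control cells, 75.0% against 66.1% of all genes, and at 37 at day 0. Across the 15 lists 20 of the 44 genes had one in every list and 4 (Col17a1, Col22a1, Col6a5 and Col9a1) in none. These counts over the 15 lists were not made for all genes. The listed start of Col6a5 lies more than 1 kb inside the annotated gene end, so this measure misses it. A peak was centred 116 bp from that start in day 0, Thy1+, SSEA1-Thy1- and GFP+ control cells, but not in SSEA1+ control cells. In GFP+ against day 0 control cells the gene-end peak was lost at 6 of the 37 genes that had one, where 6.75% of all genes with one lost it. These were Col3a1, Col6a3, Col12a1, Col10a1, Col20a1 and Col28a1. Col10a1 encodes the collagen of hypertrophic cartilage. Gene-end peaks were gained at Col9a3 and Col6a6, 2 of 7 genes without one, against 13.4% of all such genes. With the listed start of transcription in place of either end, the losses were at Col3a1, Col6a3 and Col10a1 and the gain at Col6a6. Col12a1 and Col9a3 have no listed start and could not be scored in this way.

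Col3a1 and Col6a3 lost their start peak in GFP+ control cells, whereas Col1a2 and Col5a1 kept one in all 15 lists, and the 250 bases before the start of transcription are shown for this contrast. Col10a1, which also lost its start peak, and the other genes that kept one are not shown. They are RefSeq sequences of build GRCm38.p6, each written 5′ to 3′ on the strand of its gene. Capitals mark matches, on either strand, to the core promoter box searched as TATAAA, to the box searched as CCAAT and to the GC box searched as GGGCGG, so that a match on the other strand reads as its reverse complement. Col3a1 is at chr1:45311288-45311537 on the plus strand, Col6a3 at chr1:90843972-90844221 on the minus strand, Col1a2 at chr6:4505368-4505617 on the plus strand and Col5a1 at chr2:27886175-27886424 on the plus strand.
Col3a1: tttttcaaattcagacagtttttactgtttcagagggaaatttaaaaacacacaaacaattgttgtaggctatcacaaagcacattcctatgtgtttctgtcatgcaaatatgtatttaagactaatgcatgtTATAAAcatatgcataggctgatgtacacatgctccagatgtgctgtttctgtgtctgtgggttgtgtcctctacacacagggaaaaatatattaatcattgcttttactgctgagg
Col6a3: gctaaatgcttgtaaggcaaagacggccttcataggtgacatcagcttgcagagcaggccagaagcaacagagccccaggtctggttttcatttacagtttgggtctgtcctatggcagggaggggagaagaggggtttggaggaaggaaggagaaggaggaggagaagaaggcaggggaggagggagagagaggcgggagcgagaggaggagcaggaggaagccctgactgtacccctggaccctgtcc
Col1a2: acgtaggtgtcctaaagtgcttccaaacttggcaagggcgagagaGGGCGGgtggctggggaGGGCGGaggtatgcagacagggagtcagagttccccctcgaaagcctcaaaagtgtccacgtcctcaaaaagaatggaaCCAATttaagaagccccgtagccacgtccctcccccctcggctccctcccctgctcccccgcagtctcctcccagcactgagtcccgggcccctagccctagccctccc
Col5a1: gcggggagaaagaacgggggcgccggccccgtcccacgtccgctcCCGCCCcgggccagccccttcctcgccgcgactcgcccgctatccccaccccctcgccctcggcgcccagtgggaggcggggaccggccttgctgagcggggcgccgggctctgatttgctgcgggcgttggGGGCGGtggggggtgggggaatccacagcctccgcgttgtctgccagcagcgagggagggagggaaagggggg

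The stretch before Col3a1 held 1 TATAAA, 117 bases before the listed start, and none of the other motifs. The stretch before Col6a3 held none, Col1a2 had 1 CCAAT and 2 GC boxes, and Col5a1 had 2 GC boxes, 1 on each strand. Over the 38 promoter entries of the 35 collagen genes in the table, GGGCGG was found in 57.9%, against 42.6% of 21263 entries, CCAAT in 34.2% against 35.4%, and TATAAA in 13.2% against 11.6%. The AP-1 sequence TGANTCA was found in 2.63% against 6.13%. All motifs were searched on both strands. These matches describe the letters in this window and show no binding. Motifs were not counted apart for genes that lost or kept a start peak, so a link between motif and peak was not tested.

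Col3a1 had a peak centred 102 bp from the start in all 8 lists of day 0, Thy1+, SSEA1-Thy1- and SSEA1+ cells. In the GFP+ list with CTCF shRNA it was there again, against a nearest peak at 2607 bp in GFP+ control cells. Col6a3 had a peak centred 10 bp from its start at day 0 and in Thy1+ and SSEA1-Thy1- cells, with either shRNA, and none within 1 kb in SSEA1+ cells with either. In GFP+ cells with CTCF shRNA the peak at 10 bp was present, and in GFP+ control cells the nearest lay at 3572 bp. At Col1a2 the nearest peak was centred 46 bp from the start in all 10 of these lists, and at Col5a1 21 bp.

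The collagen pathway beyond the chains was followed in 48 genes chosen by role. In GFP+ control cells, against day 0, these had 495 peaks against 797, a relative log2 of 0.07, with at least 2-fold fewer peaks at 16 of 48, against 20.8% of all genes, and more at 0, against 2.38%. The 14 partners and receptors of fibrils had 129 against 269 peaks, with 9 of 14 at least 2-fold lower, among them the collagen receptors Ddr2, Itga1, Itga2, Itga11 and Mrc2 and the proteoglycans Dcn, Lum and Bgn, which bind fibrils. Propeptide cleavage and crosslinking genes were lower at 4 of 12, among them Lox and Loxl2, the lysyl oxidases that crosslink fibrils. Prolyl and lysyl hydroxylation genes were lower at 3 of 15 (P4ha3, P3h2 and Plod2), a share near that of all genes, and chaperone and secretion genes at 0 of 7. Gene-end peaks were lost at 3 of 44 pathway genes, a share near the 6.75% of all genes, namely Lum, Bgn and Pcolce, which encodes an enhancer of procollagen cleavage. A gene-end peak was gained at 1 of 4 without one, Sec24d, a coat protein of vesicles that carry procollagen, against 13.4% of all such genes.

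The next comparison set CTCF shRNA against control shRNA in each population. The collagen genes differed most in SSEA1+ cells, where 43 of 44 had more peaks with CTCF shRNA, 0 had fewer and Col9a3 had 16 in both. Over all genes with at least 5 peaks in the higher list 82.6% had more and 7.12% fewer. At least 2-fold more peaks were found at 8 of 44 collagen genes, against 4.8% of all genes, and at least 2-fold fewer at 0, against 0.033%. Collagen peaks numbered 964 with CTCF shRNA and 646 with control shRNA, and whole lists 183640 and 135749. The relative log2 was thus 0.14 (-0.00 to 0.29), with an interval that includes 0, and within gene bodies alone 0.30 (0.10 to 0.50). With folds divided by the ratio of list lengths Col5a1 alone was at least 2-fold higher, 1 of 44 against 0.896% of all genes. In gene bodies 8 of 34 genes had at least 2-fold more peaks, against 11.6% of all, and 0 of 34 fewer, against 0.0683%. With at least 10 peaks required, 8 of 42 had 2-fold more, against 3.74%, and 0 of 42 fewer, against 0%. The median log2 ratio over the collagen genes was 0.46, against 0.26 over all genes.

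The 8 genes were Col5a1, Col27a1, Col8a1, Col4a6, Col1a2, Col4a3, Col4a5 and Col6a2. Col5a1 had 38 peaks with CTCF shRNA and 13 with control shRNA in SSEA1+ cells, a relative log2 of 1.11 (0.17 to 2.14). Col27a1 had 34 and 17, Col8a1 30 and 13, and Col4a6 30 and 15. Col1a2 had 20 and 9, Col4a3 and Col4a5 each 19 and 9, and Col6a2 16 and 8. Just under the 2-fold line, Col15a1 had 31 and 16, Col5a2 23 and 12, Col4a1 46 and 24, Col4a4 17 and 9, and Col3a1 15 and 8.

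By class, fibrillar genes had 259 peaks with CTCF shRNA and 156 with control shRNA in SSEA1+ cells, a relative log2 of 0.30 (0.00 to 0.59). Type IV genes had 141 and 81, at 0.36 (-0.04 to 0.78), and network-forming genes 62 and 38, at 0.27 (-0.34 to 0.89). For fibril-associated, type VI and transmembrane genes the relative log2 was 0.01, 0.03 and -0.09. Gene-end peaks were gained at Col6a1, Col20a1 and Col4a6, 3 of 10 genes without one against 9.16% of all such genes, and lost at Col12a1, 1 of 34 against 1.61%. Within 2.5 kb of a gene end Col20a1 alone still differed.

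**Figure D3:**
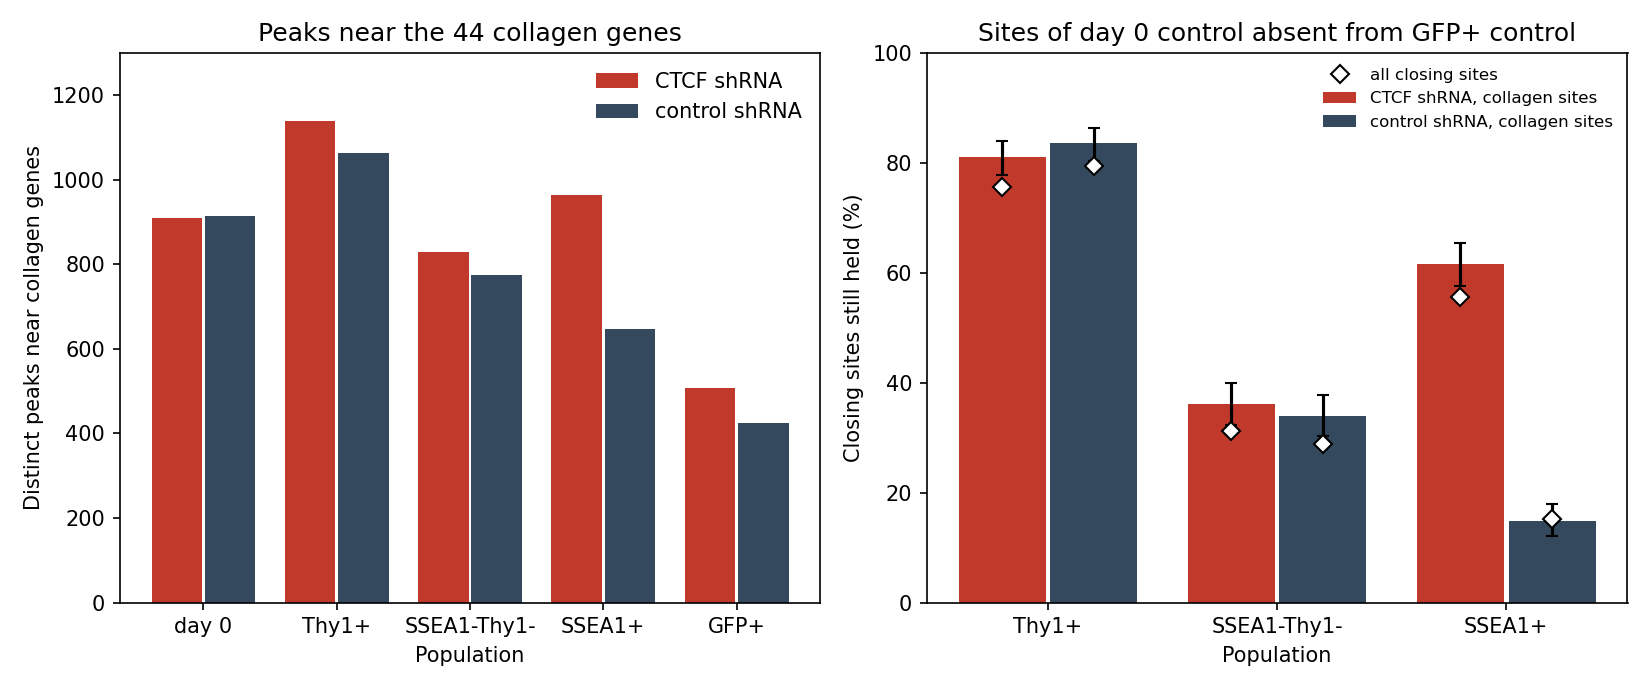
Left, number of distinct peaks around the 44 collagen genes by population (horizontal axis), with CTCF shRNA in red beside control shRNA in dark blue; the SSEA1+ bars reach 964 and 646. Right, percent of the 632 collagen sites open in day 0 control and absent from GFP+ control cells that are open in each population, with exact 95% intervals for counting error and diamonds for all 104146 such sites; SSEA1+ cells hold 61.6% with CTCF shRNA and 14.9% with control shRNA.

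Single sites show the same in more detail. Around the collagen genes 632 sites closed, being open in day 0 control and absent from GFP+ control cells. They were 69.1% of the collagen peaks of day 0 control cells, near the 67.6% of all peaks. Sites that opened numbered 142, which is 33.5% of the collagen peaks of GFP+ control cells, against 45.5% of all peaks. A further 282 were open in both. Of the 632 closing sites SSEA1+ cells held 61.6% (57.6% to 65.4%) with CTCF shRNA and 14.9% (12.2% to 17.9%) with control shRNA. Over all 104146 closing sites of the genome the shares were 55.6% and 15.1%. By class the shares with CTCF shRNA and control shRNA were 77.8% and 13.9% at multiplexin genes, 67.6% and 18.1% at type IV genes, 66.0% and 14.4% at fibrillar genes, and 40.4% and 10.5% at transmembrane genes. Around Col1a2, SSEA1+ cells held 14 of 17 closing sites with CTCF shRNA and 1 with control shRNA, and around Col5a1 28 and 6 of 42. At Col8a1 the numbers were 20 and 3 of 31.

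Of the 360 collagen peaks found in SSEA1+ cells with CTCF shRNA and not with control shRNA, 89.2% (85.5% to 92.2%) were open in day 0 control cells and 94.7% (91.9% to 96.8%) in Thy1+ control cells. In the whole list 81.6% and 88.9% of gained peaks were. In SSEA1-Thy1- control cells 45.0% of these collagen peaks were open, and in GFP+ control cells 6.39%. Peaks lost with CTCF shRNA numbered 42 around collagen genes. The 14 fibroblast markers moved with these values, with 249 peaks in SSEA1+ cells with CTCF shRNA and 149 with control shRNA (relative log2 0.30), and each of the 14 had a peak in both lists. Their part in the collagen values was not tested, and a different mix of sorted cells, or of days in the pooled list, cannot be told apart here from a different state of each cell.

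**Figure D4:**
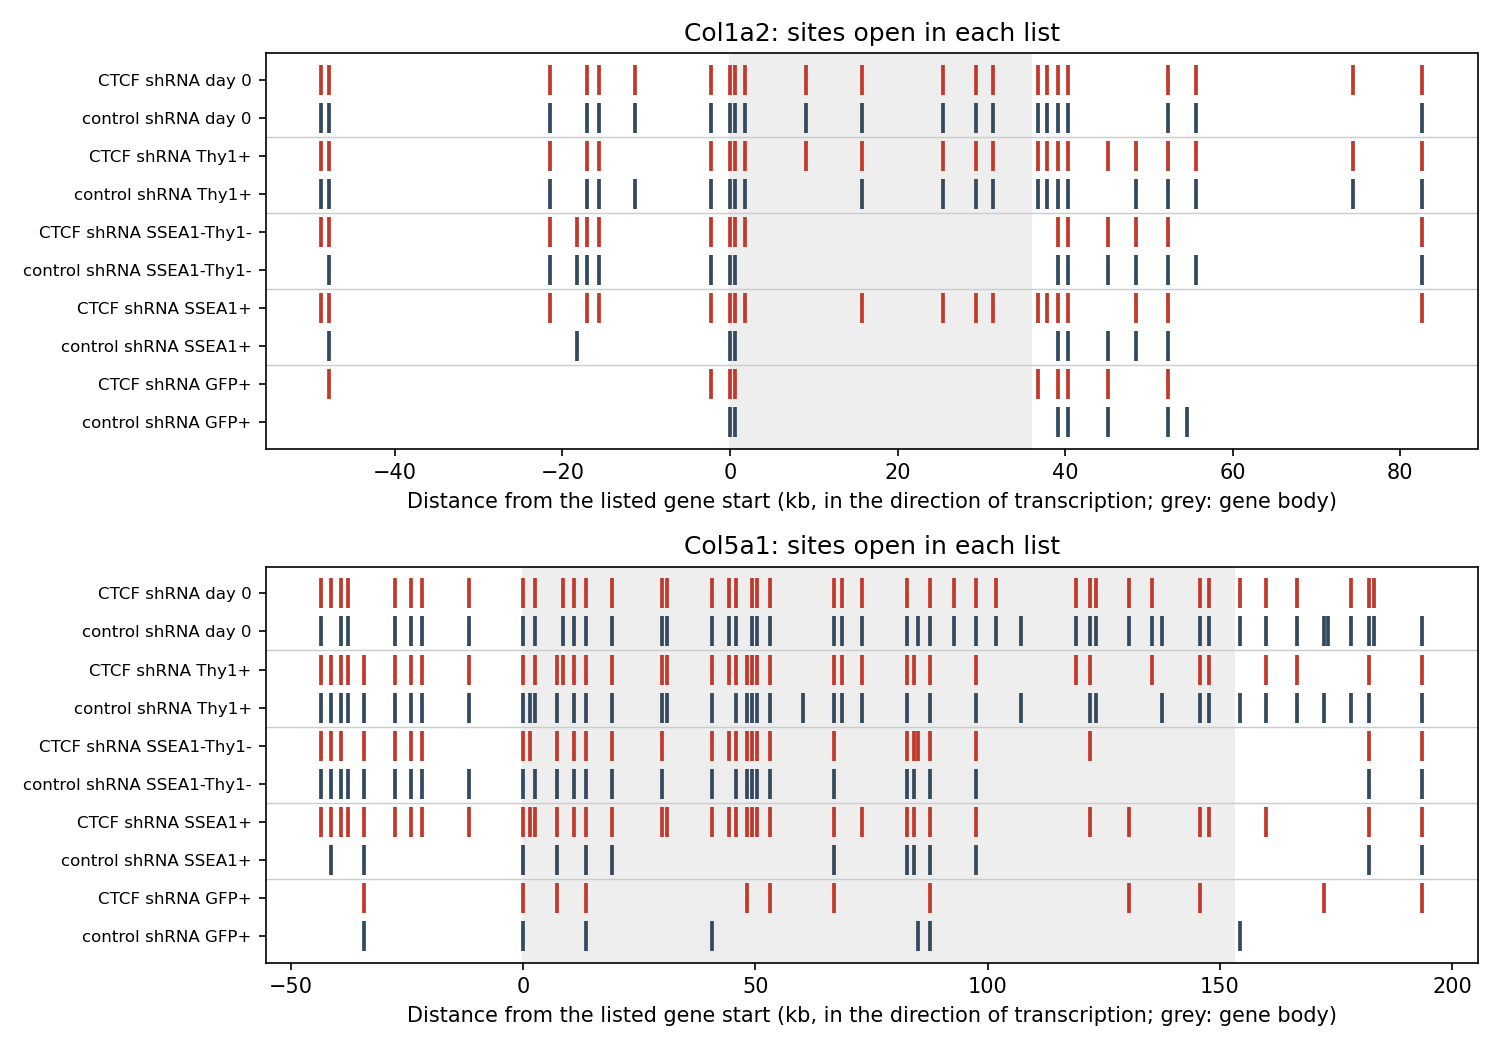
Sites open in each of the 10 lists of day 0 and sorted cells (rows, CTCF shRNA in red above control shRNA in dark blue) along Col1a2 and Col5a1, by distance in kb from the listed gene start, with the gene body in grey. The SSEA1+ row with CTCF shRNA has 20 sites at Col1a2 and 38 at Col5a1, against 9 and 13 in the control row under it, and neither GFP+ row has a site inside the body of Col1a2 more than 1 kb from its start.

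In Thy1+ cells the collagen genes differed little between the shRNAs. Peaks numbered 1138 with CTCF shRNA and 1063 with control shRNA, a relative log2 of -0.04 (-0.16 to 0.09). No collagen gene was 2-fold apart: 0 of 44 had fewer, against 0.0487% of all genes, and 0 of 44 more, against 0.433%. The largest differences in number were at Col24a1, with 53 and 43 peaks, and Col19a1, with 46 and 37. Gene-end peaks were lost at Col27a1 and Col10a1, 2 of 38 genes against 1.26% of all, and gained at Col6a6 and Col6a4, 2 of 6 against 6.8%. Closing sites were held at 81.0% and 83.5%, and opening sites at 69.0% and 49.3%, with CTCF shRNA and control shRNA. Over all opening sites the shares were 65.6% and 49.6%.

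SSEA1-Thy1- cells had 830 collagen peaks with CTCF shRNA and 776 with control shRNA, a relative log2 of -0.02 (-0.16 to 0.12). Again 0 of 44 genes had 2-fold fewer peaks (0.0278% of all) and 0 of 44 more (0.355%). Col20a1 and Col3a1 came closest, with 15 and 8 peaks, and 12 and 8. Gene-end peaks were gained at Col19a1, Col9a3, Col20a1, Col28a1 and Col6a4, 5 of 11 genes without one against 5.23% of all such genes, and lost at Col6a1, 1 of 33 against 1.64%. Of these gains Col9a3 and Col20a1 remained within 2.5 kb of a gene end, and no loss did. Closing sites were held at 36.1% and 34.0%, and opening sites at 74.6% and 64.8%, with CTCF shRNA and control shRNA.

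In GFP+ cells the collagen genes had 508 peaks with CTCF shRNA and 424 with control shRNA, a relative log2 of 0.08 (-0.11 to 0.27). Of 41 genes with at least 5 peaks in the higher list, 31 had more with CTCF shRNA and 5 had fewer, where 57.7% of all genes had more and 21.9% fewer. At least 2-fold more were found at Col6a3, with 8 and 3, and Col4a4, with 8 and 4, 2 of 41 against 1.69% of all genes, and at least 2-fold fewer at 0 of 41, against 0.126%. With at least 10 peaks required in the higher list no collagen gene was 2-fold apart. Gene-end peaks were gained at Col3a1, Col6a3 and Col20a1, 3 of 11 genes without one against 4.79% of all such genes, and lost at Col19a1, 1 of 33 against 1.73%. At Col3a1 and Col6a3 these are the start peaks described beside the promoter sequences. Fibrillar genes had 120 and 97 peaks, and type VI genes 61 and 43, at relative log2 values of 0.13 (-0.27 to 0.53) and 0.32 (-0.26 to 0.92).

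Day 0 cells had nearly equal numbers under both shRNAs, with 910 collagen peaks with CTCF shRNA and 914 with control shRNA and a relative log2 of -0.01 (-0.15 to 0.12). More peaks were found at 16 genes, fewer at 16 and equal numbers at 12. Of all genes with at least 5 peaks in the higher list, 31.4% had more and 26.2% fewer. No gene was 2-fold apart (0 of 44 in either direction, 0.0113% of all genes in each). Col5a1, the gene with most peaks, had 43 and 48. Gene-end peaks were lost at Col28a1 and Col11a2, 2 of 37 against 1.29% of all, and gained at Col9a3, 1 of 7 against 1.93%.

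Collagen sites were also grouped by the control lists in which they were open. Of 1330 collagen sites open in at least 1 of the 5 control lists, 22.9% were open at day 0 and in Thy1+ cells alone, against 19.8% of all sites. A further 18.1% were open in all 5 lists, against 16.1%. Sites open from day 0 to SSEA1-Thy1- cells and closed afterwards made up 10.2%, against 6.26%. Sites open in GFP+ cells alone made up 2.48%, against 4.46%. These shares are a description, since sites of 1 locus are not independent.

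CTCF overexpression at day 10 left the collagen genes near their control. They had 351 peaks with CTCF overexpression and 362 with the control, and whole lists held 67561 and 72414, a relative log2 of 0.06 (-0.16 to 0.27). Col25a1, with 5 and 10 peaks, was the 1 of 40 genes with at least 2-fold fewer, against 1.11% of all genes, and 0 of 40 had 2-fold more, against 0.22%. Col1a1 had 14 and 13 peaks, Col1a2 4 and 5, Col3a1 and Col5a2 each 4 and 4, and Col5a1 7 and 4. Col4a1 had 19 and 20, Col4a2 29 and 28, and Col6a3 7 and 7. No collagen gene-end peak was lost (0 of 29, against 1.55% of all) or gained (0 of 15, against 3.68%).

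With Smarca5 shRNA added to CTCF overexpression there were 315 collagen peaks, against 351 with CTCF overexpression alone, and whole lists held 66321 and 67561. The relative log2 was -0.13 (-0.35 to 0.09). Of the peaks with CTCF overexpression alone 82 were absent, 23.4% of the collagen peaks against 18.3% of all. At least 2-fold fewer peaks were found at Col13a1, with 3 against 9, and Col20a1, with 5 against 10, 2 of 39 genes against 2.1% of all, and 2-fold more at 0 of 39, against 0.678%. Fibril-associated genes had 53 against 70 and fibrillar genes 71 against 83, at relative log2 values of -0.37 (-0.92 to 0.16) and -0.20 (-0.68 to 0.28). Type IV genes had 57 against 52, at 0.16 (-0.41 to 0.73). Gene-end peaks were lost at Col14a1 and Col27a1, 2 of 29 against 4.58% of all, and gained at 0 of 15, against 2.04%.

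**Figure D5:**
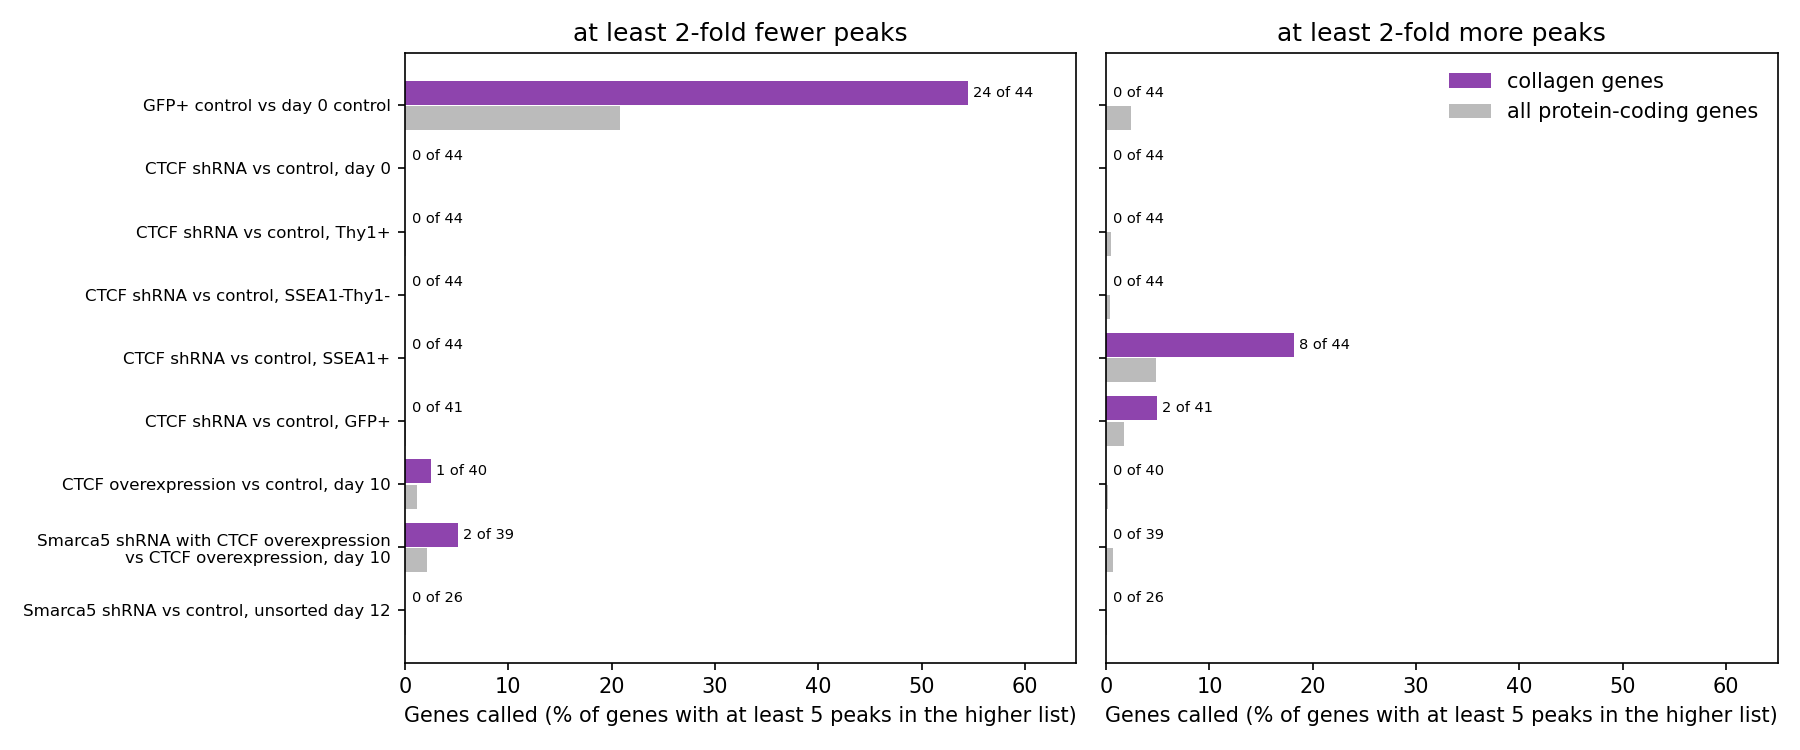
Percent of genes with at least 2-fold fewer (left) or more (right) peaks in the first-named group of each of the 9 comparisons, for collagen genes (purple, with the number called of the number with at least 5 peaks in the higher list) and all protein-coding genes (grey). The 2 longest purple bars are 24 of 44 genes fewer in GFP+ than in day 0 control cells and 8 of 44 more with CTCF shRNA in SSEA1+ cells.

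In unsorted cells of day 12 the collagen genes had 243 peaks with Smarca5 shRNA and 244 with control shRNA, a relative log2 of -0.03 (-0.29 to 0.23). The lists are the shortest of the series, with 44279 and 43618 peaks, and 26 collagen genes had at least 5 peaks in the higher list. None was 2-fold apart (0 of 26 fewer, against 0.0656% of all, and 0 of 26 more, against 0.113%). Col1a1 had 12 and 12 peaks, Col1a2 5 and 3, Col5a1 8 and 8, and Col6a3 10 and 8. Col9a1 had none in either list. Gene-end peaks were gained at Col6a3 and Col26a1, 2 of 23 genes without one against 1.08% of all such genes, and lost at 0 of 21, against 1.14%.

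The pathway genes in SSEA1+ cells had 868 peaks with CTCF shRNA and 664 with control shRNA, a relative log2 of -0.05. At least 2-fold more were found at 4 of 48 (P4ha3, P3h2, Itga11 and Bgn), against 4.8% of all genes, and fewer at 0 of 48, against 0.033%. Partners and receptors of fibrils had 252 and 172 peaks, at a relative log2 of 0.12, and prolyl and lysyl hydroxylation genes 246 and 203, at -0.16. Gene-end peaks were gained at Pcolce, Fkbp10, Ddr1 and Bgn, 4 of 7 pathway genes without one, against 9.16% of all such genes. P4ha3 encodes a prolyl hydroxylase subunit, Itga11 a collagen-binding integrin chain of fibroblasts, and Fkbp10 a chaperone of procollagen.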

How the data were processed

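Per the labels' protocols, 50,000 cells per sample were lysed and transposed with Tn5. The submitters' processing notes name MACS2, Picard, SAMtools, Bowtie2, cutadapt, Trim Galore and FastQC, and GRCm38 and mm10 as builds. Their roles, thresholds, any Tn5 shift of reads and how samples were pooled: not given in the sources used here. Per group the authors deposited 1 list of 400 bp intervals whose score column is 0 throughout, so peaks could be neither ranked nor filtered, and depth is unknown. Overlapping intervals were merged within a list. Peaks were shared when they overlapped by at least 1 bp. Gene bodies came from the RefSeq table and starts from RefSeq promoters, both GRCm38.p6 (35 of 44 collagen genes matched a promoter). Relative log2 stands for the log2 of the ratio of collagen peaks minus the same of whole lists, with an exact conditional binomial 95% interval; shares have exact Clopper-Pearson intervals. A gene was called at a 2-fold difference with at least 5 peaks in the higher list. Over all genes, shares of 2-fold calls and of directions, and median log2 ratios, cover the genes that pass the same minimum in the window used. Day 0 and sorted, day 10 and day 12 lists were compared only within each set. The genes described in full were Col1a1, Col1a2, Col3a1, Col5a1, Col5a2, Col6a1, Col6a2, Col6a3, Col4a1, Col4a2, Col12a1, Col2a1 and Col11a1, and, per comparison, up to 10 genes at least 2-fold apart with the largest difference and every gene whose gene-end peak differed; other genes named were chosen after their values were seen. The members and lists were chosen with earlier results of these data known. The code of the calls was run on the day 0 control list with peaks removed at random around chosen genes. That checks the code only, since it holds no replicate spread and no gap in list length like that of the data. Python 3.11.15, NumPy 2.4.6, pandas 2.3.3, SciPy 1.17.1 and matplotlib 3.10.9 were used.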

Additional observations from a re-analysis of the deposited data

Results flagged for a closer look

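The difference between lists with CTCF shRNA and control shRNA had unlike signs in the sorted populations, at collagen sites and over all sites alike. Each group has 1 list, and the difference between populations was not tested. The negative collagen values come from shares whose counting intervals overlap, 77.7% to 84.0% with CTCF shRNA and 80.4% to 86.4% with control shRNA for closing sites in Thy1+ cells, and 54.9% to 71.3% and 61.5% to 77.1% for opening sites in SSEA1+ cells. Both shares of a pair were scored on the same sites, so these separate intervals do not measure the uncertainty of the difference. The values are those with CTCF shRNA minus those with control shRNA, in the order Thy1+, SSEA1-Thy1- and SSEA1+ cells. The difference in the share of collagen closing sites held was -2.53, 2.06 and 46.7 percentage points, and over all closing sites -3.90, 2.39 and 40.5. The difference in the share of collagen opening sites held was 19.7, 9.86 and -6.34 points, and over all opening sites 16.0, 5.80 and -3.11. The relative log2 of collagen peaks was -0.036, -0.019 and 0.14, and 0.081 in GFP+ cells, each with an interval that includes 0.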

How the results depend on the processing

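Of the summary values recomputed under other settings, 184 stayed near the main value and 43 moved. Near meant inside the main interval for relative log2 values and shares, and within a fixed fold for counts. A change of sign was scored only for relative log2 values whose main interval excludes 0. That held for GFP+ against day 0 control cells alone, and no change of sign was found there. For GFP+ against day 0 control cells the relative log2 was -0.54 with 20 kb windows, -0.79 in gene bodies and -0.64 for peaks whose nearest gene is a collagen gene, and folds divided by list length gave 14 genes lower and 2 higher. In SSEA1+ cells it was 0.30 in gene bodies and 0.29 by nearest gene, and 1 gene was higher by list length. GFP+ against day 0 cells with CTCF shRNA, an alternative chosen after seeing the data, gave 1 gene higher and 3 gene-end peaks lost. By list length, 1 gene was higher with CTCF shRNA in GFP+ cells, 0 lower with CTCF overexpression and 1 lower with Smarca5 shRNA added. Windows of 20 kb gave 1 gene lower in Thy1+ cells and 1 higher with CTCF overexpression, gene bodies 1 higher in SSEA1-Thy1- cells, and windows of 100 kb 1 higher in GFP+ cells, 0 lower with CTCF overexpression and 1 lower with Smarca5 shRNA added. At least 10 peaks gave 0 higher in GFP+ cells and 1 lower with Smarca5 shRNA added. Genes without a listed start could not be scored by their start. With the listed start alone, gene-end peaks lost and gained were 3 and 1 in GFP+ against day 0, 1 and 1 with CTCF shRNA among Thy1+ cells, 2 and 0 among SSEA1-Thy1- cells, and 1 and 1 at day 12, with 0 gained at day 0 and 0 lost in SSEA1+ cells and with Smarca5 shRNA added. Within 2.5 kb they were 0 and 1 among Thy1+ cells, 0 and 2 among SSEA1-Thy1- cells, 0 and 1 among SSEA1+ cells, and 0 and 1 with Smarca5 shRNA added, with 0 lost in GFP+ cells, 0 gained at day 0 and 1 gained at day 12. Of single genes, Col10a1 turned round in GFP+ against day 0 cells, with a log2 ratio of (peak number + 1) of 1 in its gene body alone. That value rests on few peaks, since its whole window held 4 in GFP+ and 8 in day 0 control cells. The causes were not tested. No paired analysis was possible because each group has 1 peak list, which also leaves no replicate to leave out, and a stricter peak threshold could not be set because every score is 0. Peak numbers depend on depth, which is unknown.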

Other observations

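Loci with several collagen genes had values in either direction. In the chromosome 9 cluster of Col6a4, Col6a5 and Col6a6 there were 35 peaks in GFP+ cells with CTCF shRNA and 26 with control shRNA, while at Col9a1 and Col19a1 there were 12 and 17. Of the sites gained with CTCF shRNA around collagen genes, 160 were gained in Thy1+ and 360 in SSEA1+ cells, and 15 were gained in both, which is 9.38% of the Thy1+ and 4.17% of the SSEA1+ sites, against 10.0% and 5.95% over all sites. At 19 of 1364 collagen sites CTCF shRNA went with a gain among Thy1+ cells and a loss among SSEA1+ cells, and at 24 with the reverse, against 4383 and 4150 of 267322 sites in all. The start of Col13a1 had a peak centred within 1 kb in day 0 control cells, in both GFP+ lists and in all day 10 and day 12 lists, and in none of the 6 lists of Thy1+, SSEA1-Thy1- and SSEA1+ cells or in day 0 cells with CTCF shRNA. Its gene-end measure does not show this, since a peak within 1 kb of either annotated end was present in all 15 lists.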
